A study of Mus musculus with 8 samples.

Results

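*Dynlt1b*, *Dynlt1c*, and *Tmem181a* are 3 of the 16994 genes counted in hearts of wild-type (WT) mice and of mice with whole-body knockout of TIGAR (TKO), and they lie in a stretch of chromosome 17 where copies of the same genes repeat. They were chosen by their TKO over WT ratios in earlier results from these 8 libraries and taken by name, so every TKO over WT value of theirs is a description without a test. The count table holds 4 *Dynlt1* copies (*Dynlt1a*, *Dynlt1b*, *Dynlt1c*, and *Dynlt1f*) and 3 *Tmem181* copies (*Tmem181a* and the pseudogenes *Tmem181b-ps* and *Tmem181c-ps*), and all 7 are given here, since their transcripts share sequence. All 7 had a mean of 1 or more CPM, the counts per library scaled to the same total, the limit for testing, which 12999 genes passed.

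For each genotype, 4 libraries were sequenced, 1 of the left ventricle and 1 each of the infarct, border, and remote zones, so a difference between 2 libraries cannot be set against a spread between replicates. The mice were male, and myocardial infarction (MI) for the 3 zones was induced at 16 weeks of age by permanent ligation of a coronary artery, with tissue taken 4 weeks later. The left ventricle libraries are labelled as heart tissue without a zone. The sources used here do not give the age of those mice or whether the hearts were normal or sham operated. TKO mice carry the disruption in every cell, and RNA of 3 mice per genotype was pooled for the infarct zone. A floxed *Tigar* line of the same study came from C57BL/6N, and the substrain of the sequenced TKO and WT mice is not given in the sources used here.

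*Dynlt1* encodes a light chain (also called Tctex-1) of cytoplasmic dynein, the motor that carries cargo toward the minus ends of microtubules. The light chain forms a dimer that binds the intermediate chain of the motor, and it also binds some cargo proteins. *Tmem181* encodes a multi-pass membrane protein with an extracellular GOLD domain. In the mouse both genes lie in the proximal part of chromosome 17 that includes the t complex, a region known for rearranged and duplicated segments.

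On GRCm38, the 7 copies span 399 kb of chromosome 17. *Tmem181a* (ENSMUSG00000038141) lies from 6256860 to 6308314 on the plus strand, and its 3′ end overlaps *Dynlt1a* (ENSMUSG00000092074, 6306340 to 6317500, minus strand). *Dynlt1b* (ENSMUSG00000096255) follows on the plus strand from 6430112 to 6436296, beside *Tmem181b-ps* on the minus strand (6438524 to 6467022). *Dynlt1c* (ENSMUSG00000000579) lies on the plus strand from 6601671 to 6609774, followed on the minus strand by *Tmem181c-ps* (6613753 to 6639790) and *Dynlt1f* (ENSMUSG00000095677, 6646602 to 6655900). Each *Tmem181* copy thus lies next to a *Dynlt1* copy.

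The coding sequence is 342 bases long in each *Dynlt1* copy and is spread over 5 exons of the transcript. It is identical in *Dynlt1a*, *Dynlt1c*, and *Dynlt1f*, and *Dynlt1b* differs from them by the single substitution A21C, with *Dynlt1b*'s base written before the position and positions counted from 1 at the A of the start codon. The opening 60 coding bases of each copy are shown because they hold this difference, which is in capitals:

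Dynlt1a: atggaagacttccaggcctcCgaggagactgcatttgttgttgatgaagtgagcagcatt

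Dynlt1b: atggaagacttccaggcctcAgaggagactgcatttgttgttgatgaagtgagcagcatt

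Dynlt1c: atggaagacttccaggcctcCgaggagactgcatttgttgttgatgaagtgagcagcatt

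Dynlt1f: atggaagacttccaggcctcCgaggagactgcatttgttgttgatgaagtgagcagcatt

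These bases were read from the GENCODE M21 transcripts. On the genome they cross an intron, running from 6430212 to 6431912 in *Dynlt1b* and from 6601810 to 6603519 in *Dynlt1c*. Reads from within the coding sequences of *Dynlt1a*, *Dynlt1c*, and *Dynlt1f* cannot be told apart by these bases.

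*Dynlt1c* and *Dynlt1f* also resemble each other upstream. RefSeq promoter sequences matched *Dynlt1c*, *Dynlt1f*, and *Tmem181a* among the 7 copies. Only those of *Dynlt1c* and *Dynlt1f* were compared, so nothing is said of the sequence upstream of *Dynlt1b*. Over 142 bases before an annotated transcription start, *Dynlt1c* (chr17:6601529-6601670, plus strand, GRCm38.p6) and *Dynlt1f* (chr17:6655940-6656081, minus strand) differed at 3 bases and were 97.9% identical. The stretch is shown, with the differing bases in capitals, because these copies are alike in their upstream sequence as well as in their coding sequence:

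Dynlt1c: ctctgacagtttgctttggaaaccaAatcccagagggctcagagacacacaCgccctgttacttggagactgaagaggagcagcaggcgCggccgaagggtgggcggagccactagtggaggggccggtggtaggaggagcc

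Dynlt1f: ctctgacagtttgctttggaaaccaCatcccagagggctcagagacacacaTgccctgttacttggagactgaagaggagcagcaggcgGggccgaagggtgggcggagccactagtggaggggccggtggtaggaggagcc

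How far a read can be assigned to 1 copy was described by cutting all annotated transcripts into words of 31 bases, the length that Kallisto matches by default. Of the 741 words of *Dynlt1b*, 97 (13.1%) occurred in no other gene, and all of these lay within the first 151 bases of its transcript, which is 771 bases long. Each of the remaining words was also in another gene, and *Dynlt1c* alone held 613 of the 741 (82.7%). *Dynlt1c* had 7.60% of its words to itself, *Dynlt1f* 7.30%, and *Dynlt1a* 21.4%. *Tmem181a* was better separated, with 4010 of 6603 words (60.7%) of its own, against 40.1% for *Tmem181b-ps* and 18.7% for *Tmem181c-ps*. *Tmem181a* and *Dynlt1a* shared 522 words where they overlap. Whether the counting used strand is not given in the sources used here, so reads from that overlap cannot be told apart.

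**Figure D1:**
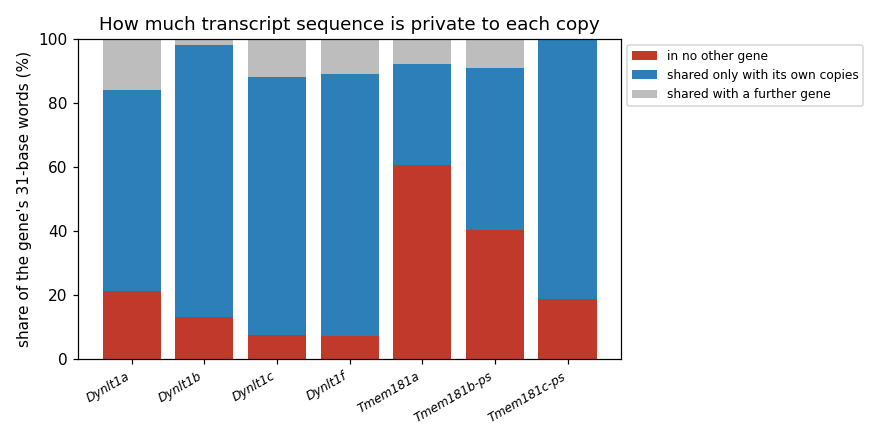
Share of each copy's 31-base words (y axis, %) that occur in no other gene, only in other copies of the same gene, or also in a further gene. *Dynlt1c* and *Dynlt1f* have the smallest shares of their own (7.60% and 7.30%), and *Tmem181a* the largest (60.7%).

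Total counts lay between 27429240 and 33799249 per library. Counts were scaled by library total and TMM factor (edgeR), and the factor was 1.54 in the WT and 1.26 in the TKO infarct zone, against 0.866 to 0.956 elsewhere. Scaling by totals alone shifted the median TKO over WT value of all genes in the infarct zone to -0.29 on the log2 scale. *Tigar*, the disrupted gene, had 1066 to 2215 counts in WT and 51 to 87 in TKO libraries. For cardiomyocyte markers the median TKO over WT ratio was 1.02 (left ventricle) and 2.04 (infarct zone), with 6 of 6 higher in the 3 TKO zones after MI. All 5 of 5 fibroblast and 4 of 4 macrophage markers were lower in those TKO zones (medians 0.559 to 0.831 and 0.696 to 0.763), and all 3 of 3 atrial markers were lower there, down to a median of 0.0763 in the infarct zone. *Nnt*, the mitochondrial transhydrogenase that carries a deletion in the C57BL/6J substrain, had 2206 or more counts in each library. In bulk tissue, fewer cells of a type and less RNA per cell cannot be told apart.

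*Dynlt1b* was higher in TKO than in WT in each region. Its counts in WT were 441 in the left ventricle, 722 in the infarct zone, 506 at the border, and 586 in the remote zone. The TKO libraries had 1210, 2070, 1804, and 1761 counts in the same order. In scaled CPM the 4 WT libraries lay between 16.1 and 19.3 and the 4 TKO libraries between 46.7 and 60.8. The TKO over WT ratio was 2.90 in the left ventricle (exact 95% interval, 2.60 to 3.25), 3.39 in the infarct zone (3.12 to 3.70), 3.70 for the border zone (3.35 to 4.10), and 3.04 for the remote zone (2.76 to 3.34). These Clopper-Pearson intervals cover counting error only, and the spread between mice is not known. The counts are estimates, and the intervals leave out the uncertainty of dividing shared reads among the copies. Beside the left ventricle ratio, the marker medians of TKO over WT were 0.911 (macrophage) to 1.12 (fibroblast) for the cardiomyocyte, fibroblast, macrophage, and endothelial lists, 1.29 for atrial, 1.31 for erythroid, and 0.726 for lymphocyte genes. The lymphocyte median rests on the 2 of 3 markers with more than 3 counts in both libraries. All 3 lymphocyte markers summed to 2.88 scaled CPM in the WT and 0.463 in the TKO left ventricle. The 2 adipocyte markers summed to 14.7 scaled CPM in the WT and 0.232 in the TKO left ventricle. The part of these differences in the ratio was not tested.

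The left ventricle had the lowest level of *Dynlt1b* among the 4 TKO libraries, and also among the 4 WT libraries. The other 3 TKO libraries lay within 57.9 to 60.8 scaled CPM. The largest level was 1.20 times the smallest in WT and 1.30 times the smallest in TKO. Per kb of the coding transcript, *Dynlt1b* had 20.9 to 25.0 scaled CPM in WT, above *Dynlt1f* at 11.0 to 16.8, *Tmem181a* at 5.53 to 6.29, *Dynlt1c* at 2.37 to 3.10, and *Dynlt1a* at 0.293 to 0.495. The counts are summed over all transcripts of a gene but divided by the length of 1 of them. This order therefore depends on which transcripts the reads came from. In TKO the order within each library was the same, with 60.6 to 78.9 for *Dynlt1b*, 11.7 to 14.0 for *Dynlt1f*, 9.20 to 13.2 for *Tmem181a*, 1.88 to 4.82 for *Dynlt1c*, and 0.326 to 0.467 for *Dynlt1a*, though the ranges of *Dynlt1f* and *Tmem181a* overlapped.

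**Figure D2:**
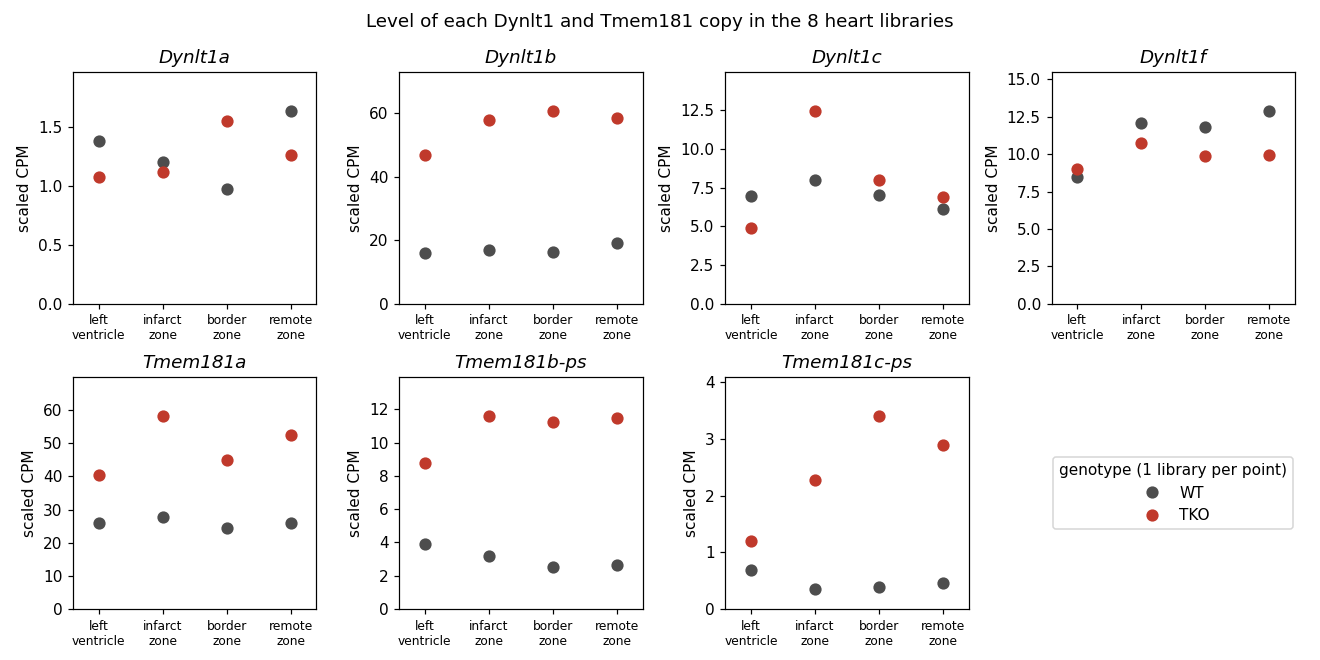
Scaled CPM (y axis, 1 scale per panel) of each copy in the 4 regions (x axis), with 1 point per library. *Dynlt1b* and the 3 *Tmem181* copies are higher in TKO in every region, while the other *Dynlt1* copies overlap between genotypes.

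*Dynlt1c* had no common direction over the regions. WT libraries had 190 counts in the left ventricle, 339 in the infarct zone, 217 at the border, and 187 in the remote zone, and TKO libraries had 126, 446, 237, and 208. The genotypes overlapped, with 6.15 to 8.01 scaled CPM in WT and 4.87 to 12.5 in TKO. The TKO over WT ratio was 0.702 in the left ventricle (0.556 to 0.884) and 1.56 in the infarct zone (1.35 to 1.80). In the border (1.13, 0.940 to 1.37) and the remote zone (1.12, 0.918 to 1.38) a difference was not detectable at this depth. The direction in each region was the same under every scaling tried.

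*Tmem181a* was higher in TKO in each region, by less than *Dynlt1b*. WT libraries had 715, 1173, 751, and 793 counts in the left ventricle, infarct, border, and remote zones. TKO libraries had 1050, 2085, 1335, and 1582. In scaled CPM the WT libraries lay between 24.4 and 27.7 and the TKO libraries between 40.5 and 58.3. The TKO over WT ratio was 1.55 in the left ventricle (1.41 to 1.71), 2.10 in the infarct zone (1.96 to 2.26), 1.85 for the border zone (1.69 to 2.02), and 2.02 for the remote zone (1.85 to 2.20). As for *Dynlt1b*, the TKO left ventricle had the lowest of the 4 TKO levels.

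Read against all 12999 genes, TKO over WT ratios of at least 2 after a prior count of 2 were found for 1.95% of genes in the left ventricle, 2.42% in the infarct zone, 1.23% at the border, and 1.17% in the remote zone. *Dynlt1b* passed in all 4 regions, *Tmem181a* passed in the infarct and remote zones, and *Dynlt1c* passed in none. At least 2-fold higher in all 4 regions were 8 genes (0.0615%), among them *Dynlt1b* and *Tmem181b-ps*, and at least 1.5-fold higher were 22 (0.169%), which included *Tmem181a* and *Tmem181c-ps* as well. A ratio above 1 in all 4 regions was found for 13.2% of genes. By the smallest of its 4 log2 ratios, *Dynlt1b* stood at rank 6 and *Tmem181a* at rank 20 of all genes tested, and *Dynlt1c* at rank 9924. Since the genes were chosen for these ratios, nothing is read from the ranks.

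Summed over *Dynlt1b* and *Dynlt1c*, the counts were 631, 1061, 723, and 773 in the WT left ventricle, infarct, border, and remote zones. The TKO sums were 1336, 2516, 2041, and 1969. The TKO over WT ratio of the sum was 2.24 in the left ventricle (2.04 to 2.47), 2.81 in the infarct zone (2.61 to 3.02), 2.93 for the border zone (2.69 to 3.20), and 2.57 for the remote zone (2.37 to 2.80). With *Dynlt1a* and *Dynlt1f* added, it was 1.87 (1.73 to 2.04), 2.15 (2.02 to 2.28), 2.21 (2.06 to 2.38), and 1.92 (1.79 to 2.06) in the same order. The sum over all 4 copies was 32.9 to 40.0 scaled CPM in WT and 61.7 to 82.3 in TKO. It is not a closed set, since *Dynlt1b* also shared 291 of its 741 words with the pseudogene *Dynlt1-ps1*, and *Dynlt1c* shared 312 with *Dynlt1-ps1* and 299 with *Gm26848*, which were not analysed here.

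The difference in this sum was close to that of *Dynlt1b* alone. TKO minus WT, in scaled CPM, was 28.8 for the 4 copies and 30.6 for *Dynlt1b* in the left ventricle, and 43.9 and 40.8 in the infarct zone. The border zone values were 43.9 and 44.4, and those of the remote zone 36.6 and 39.2. The difference of *Dynlt1c* was 4.46 in the infarct zone and between -2.07 and 0.947 elsewhere. *Dynlt1a*, *Dynlt1c*, and *Dynlt1f* together had TKO over WT ratios of 0.891 (0.776 to 1.02), 1.15 (1.04 to 1.26), 0.978 (0.871 to 1.10), and 0.874 (0.778 to 0.982) in the left ventricle, infarct, border, and remote zones. *Dynlt1f* by itself ranged from 0.769 in the remote zone (0.659 to 0.896) to 1.06 in the left ventricle (0.883 to 1.28). *Dynlt1a*, with 28 to 51 counts, had intervals that held 1 in each region.

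**Figure D3:**
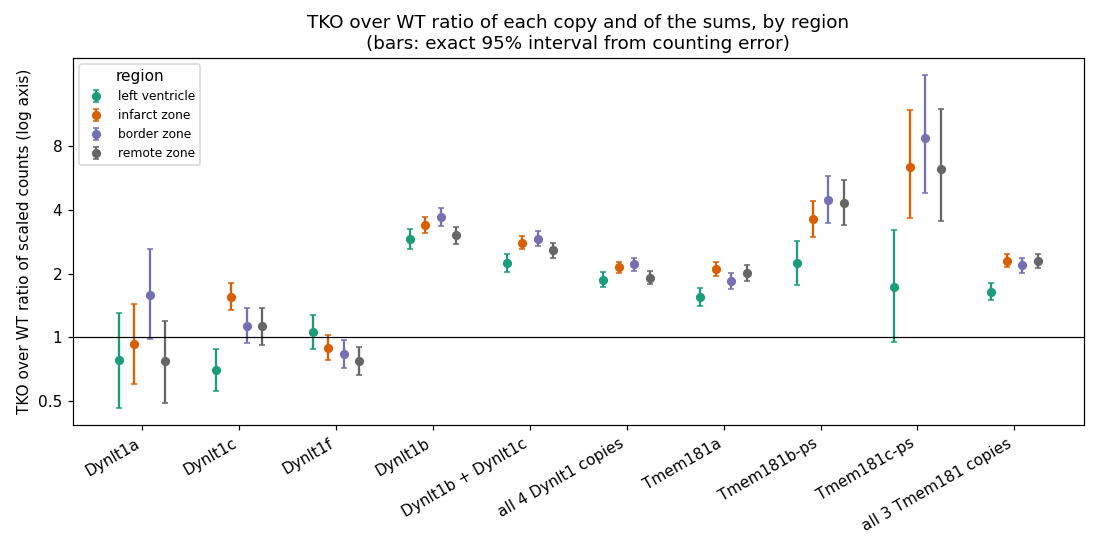
TKO over WT ratio of scaled counts (log axis) for each copy and for the sums, with 1 point per region and exact 95% intervals from counting error as bars. *Dynlt1b* lies between 2.90 and 3.70, the sum over all 4 *Dynlt1* copies between 1.87 and 2.21, and *Dynlt1c* on both sides of 1.

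*Dynlt1b* held 44.5% to 48.9% of the counts of the 4 copies in WT and 70.4% to 76.4% in TKO. The share in the WT left ventricle was 48.9% (exact 95% interval, 45.6 to 52.2) and that in the TKO left ventricle 75.7% (73.5 to 77.8). *Dynlt1c* took 15.4% to 21.1% in WT. In TKO its share was 15.2% in the infarct zone (13.9 to 16.5) and 7.88% to 9.96% in the other 3 regions. Shares within a library do not depend on the library scaling. They do depend on how shared reads were divided among the copies, which their intervals leave out.

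**Figure D4:**
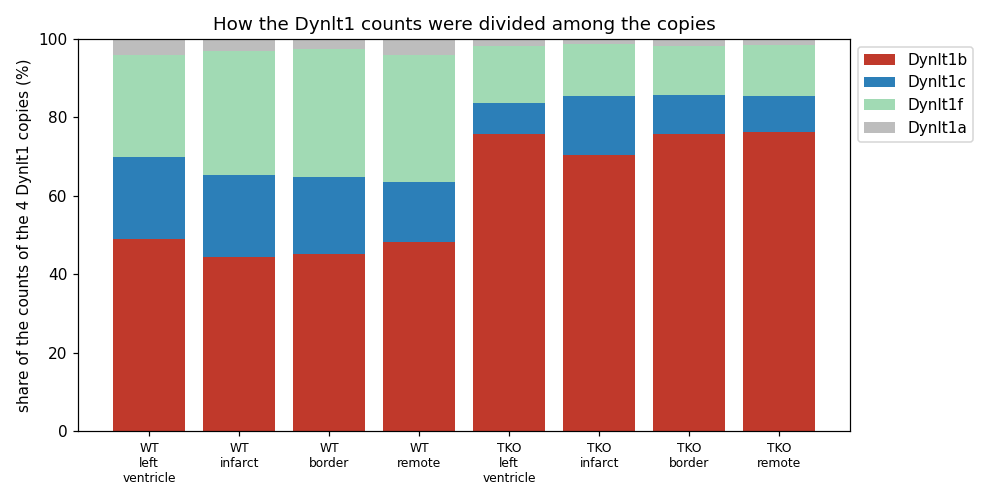
Share of the counts of the 4 *Dynlt1* copies (y axis, %) taken by each copy in each library. *Dynlt1b* takes 44.5% to 48.9% in the WT libraries and 70.4% to 76.4% in the TKO libraries.

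The *Tmem181* pseudogenes showed larger ratios than *Tmem181a*, from fewer counts. *Tmem181b-ps* had 107, 136, 78, and 81 counts in the WT left ventricle, infarct, border, and remote zones and 227, 415, 334, and 346 in TKO. Its TKO over WT ratio was 2.24 in the left ventricle (1.78 to 2.85), 3.61 in the infarct zone (2.97 to 4.42), 4.45 for the border zone (3.47 to 5.77), and 4.32 for the remote zone (3.38 to 5.57). *Tmem181c-ps* had 12 to 19 counts in WT and 31 (left ventricle) to 101 (border zone) in TKO. Its ratio was 1.73 in the left ventricle (0.945 to 3.23), not detectably different from 1, and 6.28 to 8.74 in the 3 zones. *Tmem181a* therefore held a smaller share of the *Tmem181* counts in TKO (75.4% to 80.8%) than in WT (85.0% to 89.3%). Over the 3 copies, the ratio of the sum was 1.65 in the left ventricle (1.51 to 1.80), 2.31 in the infarct zone (2.16 to 2.47), 2.19 for the border zone (2.01 to 2.38), and 2.29 for the remote zone (2.12 to 2.48).

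Genes around the copies were taken by position and not by their own ratios. They were compared in the same TKO over WT contrast by which the 3 genes were chosen. The table holds 17 other genes within 1 Mb of the 3 genes, of which 13 could be tested. With region as a block over all 8 libraries, the quasi-likelihood test of edgeR, with Benjamini-Hochberg adjusted p-values, called 0 of the 13 for genotype, with 4 at an unadjusted p under 0.05 and 2 called by DESeq2. Over all genes, edgeR called 0.0769% higher and 0.0615% lower in TKO, 16.2% had an unadjusted p under 0.05, and DESeq2 called 2.63%. It takes regions in place of replicates, so it bears on regions and not on mice. Of the genes tested, those nearest to the copies did not pass. *Tulp4*, 5.7 kb below *Tmem181a*, had a log2 difference of -0.11 (adjusted p = 0.522, edgeR), and *Ezr*, which encodes the membrane linker ezrin and lies 82.1 kb above *Dynlt1f*, had 0.09 (adjusted p = 0.624). *Rsph3b*, a radial spoke gene 248.5 kb above the copies, had a ratio above 1 in each region (1.13 to 1.32), with a log2 difference of 0.32 (unadjusted p = 0.00336, adjusted p = 0.183, edgeR). *Sytl3*, 3.2 kb above *Dynlt1f*, had 7 to 27 counts and was not tested. The processed pseudogene *Fbl-ps2*, 134.7 kb below the copies, had 4 to 25 counts in WT and 11 to 40 in TKO. It was not tested either. Its TKO over WT ratio was 1.10 in the left ventricle (0.611 to 1.99) and 0.566 in the infarct zone (0.249 to 1.21). The ratio was 7.27 for the border zone (2.54 to 28.5) and 5.78 for the remote zone (2.56 to 15.3).

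Farther above the copies, both genes called by DESeq2 were lower in TKO, and both were closest between genotypes in the left ventricle. *Rnaset2b*, a ribonuclease T2 gene 314.7 kb above the copies, had 1255 to 1812 counts in WT. In TKO it had 1231 counts in the left ventricle but 27, 25, and 31 in the infarct, border, and remote zones. Its log2 difference over the regions was -4.04 by edgeR (adjusted p = 0.199) and its adjusted p by DESeq2 was 0.000653. *Tagap1*, a GTPase-activating protein gene 299.1 kb above, had TKO over WT ratios of 0.845 in the left ventricle (0.719 to 0.994) and 0.274 to 0.384 in the 3 zones, with a log2 difference of -1.26 (adjusted p = 0.173 by edgeR and 0.00105 by DESeq2). Without the left ventricle, edgeR called both, with adjusted p = 0.000269 for *Rnaset2b* and 0.0256 for *Tagap1*, beside 0.639% of all genes. The TKO left ventricle library thus stood apart from the other 3 TKO libraries at *Rnaset2b*, and it was also the TKO library with the lowest level of each of the 7 copies. Among the WT libraries, the left ventricle was lowest for *Dynlt1b* and *Dynlt1f*. Whether these differences are related was not tested.

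*Rnaset2b* too has a near copy, *Rnaset2a*, which was looked up after the values of *Rnaset2b* were seen. *Rnaset2a* had 1921 to 2955 counts in WT and 3173 to 3696 in TKO, with TKO over WT ratios of 1.26 to 1.95. Summed over the pair, the ratio was 1.18 in the left ventricle (1.13 to 1.23), 1.19 in the infarct zone (1.13 to 1.25), 0.970 for the border zone (0.926 to 1.02), and 0.790 for the remote zone (0.757 to 0.825). How reads were divided between the pair was not tested. Sharing of reads with other genes was not examined for *Tagap1*, *Rsph3b*, or the other neighbouring genes.

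**Figure D5:**
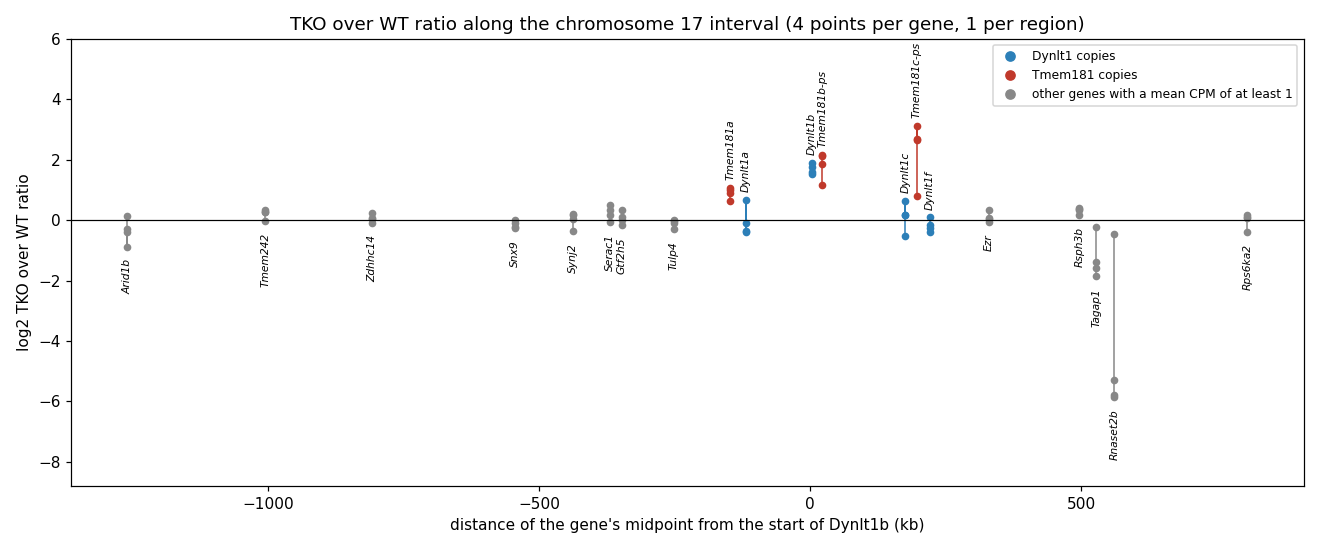
log2 TKO over WT ratio (y axis) of the copies and of the 13 neighbouring genes tested, by distance from the start of *Dynlt1b* (x axis, kb), with 1 point per region. *Dynlt1b*, the *Tmem181* copies, and *Rsph3b* lie above 0 in every region, and *Tagap1* and *Rnaset2b* lie below it.

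Next, each zone after MI was compared with the left ventricle, a contrast that the choice of genes did not use, with genotype as a block (edgeR, both libraries of a region standing in for replicates). In the infarct zone 28.2% of all genes were called higher and 28.6% lower. Of the 3 genes, *Dynlt1c* rose, by 0.77 on the log2 scale (adjusted p = 0.0463), and without the filter on low counts it did not pass (0.71, adjusted p = 0.067). *Dynlt1b* (0.20, adjusted p = 0.179) and *Tmem181a* (0.31, adjusted p = 0.0796) did not pass. A share of 1 in 3 is near the background. With library totals alone, the median of all genes in this contrast shifted from 0.02 to 0.71, and 7869 genes were higher and 1084 lower, against 3670 and 3715 with TMM. *Dynlt1b* (0.88) and *Tmem181a* (0.99) passed under that scaling.

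The rise of *Dynlt1c* was not alike in the genotypes. The infarct zone over left ventricle ratio was 2.56 in TKO (2.10 to 3.15) and 1.16 in WT (0.965 to 1.39), and the difference between genotypes was not tested. For *Dynlt1b* the ratios were 1.24 in TKO (1.15 to 1.33) and 1.06 in WT (0.941 to 1.20). *Tmem181a* had 1.44 in TKO (1.34 to 1.55) and 1.06 in WT (0.968 to 1.17). For each of the 3 genes, the TKO ratio rests on the TKO left ventricle library, which had the lowest of the 4 TKO levels.

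In the border zone 0.669% of genes were called higher and 0.0462% lower, and 0 of the 7 copies were called by edgeR or DESeq2, with 0 at an unadjusted p under 0.05 by edgeR. Of all genes there, 17.9% had an unadjusted p under 0.05 by edgeR, and DESeq2 called 4.43%. The log2 differences were 0.21 for *Dynlt1b* (adjusted p = 0.381), 0.33 for *Dynlt1c* (adjusted p = 0.533), and 0.02 for *Tmem181a* (adjusted p = 0.939). In the remote zone edgeR called 0 genes (1378 at an unadjusted p under 0.05), and DESeq2 called 162. There *Dynlt1b* had 0.29 (unadjusted p = 0.0425, adjusted p = 0.456), *Dynlt1c* 0.13 (adjusted p = 0.879), and *Tmem181a* 0.18 (adjusted p = 0.632) by edgeR. *Dynlt1f* had 0.37 in the infarct zone (adjusted p = 0.066) and 0.37 in the remote zone (adjusted p = 0.456).

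Genes of the dynein motor and its cofactors, along with other GOLD-domain genes, were set beside all genes for genotype. Apart from the copies, 45 genes of 4 lists could be tested: 13 of cytoplasmic dynein, 12 of dynactin (the complex that links dynein to cargo), 14 of dynein regulators and cargo adaptors, and 6 other GOLD-domain membrane proteins. edgeR called 0 of the 45 in either direction across regions, with 3 at an unadjusted p under 0.05, and DESeq2 called 0. Of all genes, 16.2% had an unadjusted p under 0.05 by edgeR, and DESeq2 called 2.63%. With edgeR calling 18 of all 12999 genes, 0 calls among 45 is near the background. Their median log2 TKO over WT difference was 0.00, as was that of all genes, with a range from -0.35 (*Ninl*) to 0.31 (*Dynll2*). *Dynlt3*, the other Tctex-type light chain with high counts, had -0.17 (adjusted p = 0.314). *Dync1h1*, the motor's heavy chain, had -0.01 (adjusted p = 0.968), and *Dync1i2*, the intermediate chain to which the light chain binds, had -0.04 (adjusted p = 0.803).

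In the infarct zone edgeR called 12 of the 45 listed genes higher (26.7%) and 14 lower (31.1%) than in the left ventricle, near the background of 28.2% and 28.6% of all genes, so these counts do not set the lists apart. Of cytoplasmic dynein, 4 of 13 rose and 2 fell. The light chain *Dynll1* rose by 1.30 on the log2 scale (adjusted p = 0.00131) and its paralogue *Dynll2* fell by 1.22 (adjusted p = 0.0023). *Dync2h1*, the heavy chain of the ciliary dynein, rose by 1.20 (adjusted p = 0.00316). The cytoplasmic heavy chain *Dync1h1*, with 0.03 (adjusted p = 0.908), did not pass.

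Of dynactin, 2 of 12 rose and 7 fell in the infarct zone, and the median was -0.34 against 0.02 for all genes. *Dctn1*, the large subunit that contacts microtubules, fell by 0.61 (adjusted p = 0.0144) and *Capza1*, an actin-capping subunit, rose by 0.94 (adjusted p = 0.00136). Of the regulators and adaptors, 3 of 14 rose and 5 fell, among them *Ninl* with a rise of 1.72 (adjusted p = 0.00189) and *Hook1* with a fall of 1.09 (adjusted p = 0.00281). Of the GOLD-domain proteins, 3 of 6 rose and 0 fell, led by *Wls*, which carries Wnt proteins to the cell surface, at 0.77 (adjusted p = 0.00246). The infarct zone also differed from the left ventricle in its cell type markers. Summed cardiomyocyte markers went from 24918 scaled CPM in the left ventricle to 5239 in the infarct zone in WT and from 23524 to 11480 in TKO. Summed fibroblast markers went from 705 to 6144 and from 790 to 5194, and the part of these shifts in the list values was not tested. Against the left ventricle, edgeR called 0 of the 45 in the border zone (6 at an unadjusted p under 0.05, 1 by DESeq2) and 0 in the remote zone (2 at an unadjusted p under 0.05, 0 by DESeq2). Of all genes, 17.9% in the border and 10.6% in the remote zone had an unadjusted p under 0.05 by edgeR. DESeq2 called 4.43% and 1.25% of all genes in these zones.

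Genes whose levels over the 8 libraries were most like those of *Dynlt1b* were the processed pseudogenes *Rnps1-ps* (Pearson r of log2 scaled CPM, 0.987), *Rps2-ps10* (0.983), and *Rps2-ps6* (0.983), followed further down by *Tmem181b-ps* (rank 5), *Tmem181a* (rank 7), and *Tmem181c-ps* (rank 8). These points share 2 genotypes, 4 regions, and the library scaling. *Dynlt1b*, *Dynlt1c*, and *Tmem181a* were chosen by TKO over WT ratios in the same libraries, so nothing is read from their likeness. *Tmem181a* also shared 2218 of its words of 31 bases with *Tmem181b-ps*. *Rnps1-ps* had 4 to 9 counts in WT and 180 to 387 in TKO, and *Rps2-ps10* had 96 to 217 and 2306 to 4429. For *Tmem181a* the most alike were *Tmem181b-ps* (0.965), *Dynlt1b* (0.963), and *Rnps1-ps* (0.951). For *Dynlt1c* they were *Lama2* (0.971), *Piga* (0.961), and *Lcat* (0.960), and *Dynlt1b* came at rank 5705 with 0.23. *Lama2*, which encodes the laminin α2 chain of the basement membrane around muscle cells, had TKO over WT ratios of 0.784 in the left ventricle, 1.37 in the infarct zone, 0.999 at the border, and 0.990 in the remote zone.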

How the data were processed

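Total RNA of 8 heart libraries was sequenced. Reads were trimmed by the authors (Trim Galore 0.6.5). They quantified transcripts with Kallisto 0.46 against the mm10 transcriptome, and summed these to genes by tximport, and the deposited values are whole-number estimated counts per gene without normalization. The submitters' processing notes also name edgeR 3.34.1. Of the 16994 genes, 153 have no symbol in the table and 16867 were placed on GENCODE M21 (GRCm38). The transcript release behind the deposited counts is not given in the sources used here, so the 31-base words of M21 may differ from those used in counting.

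TMM factors came from 12999 genes (mean CPM of 1 or more), in R 4.3.3 with edgeR 4.0.16. Genotype was tested across regions with region as a block, and zones against the left ventricle with genotype as a block, by the edgeR quasi-likelihood test, with Benjamini-Hochberg adjusted p under 0.05 over all genes tested, and DESeq2 1.42.0 was the alternative. The genotype test was also run on simulated counts. Other alternatives were library totals, DESeq2 size factors, other gene sets for TMM, a prior count of 2, no filter, and leaving out each region. The genes named were the copies, *Tigar*, *Nnt*, the genes within 1 Mb, called or highly counted genes of the lists, and the 3 genes most correlated with each member. *Rnaset2a* was added after the values of *Rnaset2b* were seen. Likeness was computed on log2 of scaled CPM plus 0.01. The members and lists were chosen with earlier results of these data known. Figures were made with Python 3.11.15 and matplotlib 3.10.9.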

Additional observations from a re-analysis of the deposited data

Results flagged for a closer look

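*Dynlt1c* had TKO over WT ratios on opposite sides of 1 in 2 regions, each with a counting-error interval that excludes 1. The ratio was 0.702 in the left ventricle, from 126 counts in TKO and 190 in WT, and 1.56 in the infarct zone, from 446 and 339 counts. With 1 library per genotype and region, this difference between regions was not tested. Of the 3803 words of 31 bases in *Dynlt1c* transcripts, 289 were in no other gene. The intervals leave out the uncertainty of dividing shared reads among the copies.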

How the results depend on the processing

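Under library totals the infarct zone TKO over WT ratio became 2.77 for *Dynlt1b*, 1.27 for *Dynlt1c*, 1.72 for *Tmem181a*, and 2.29 for the sum of *Dynlt1b* and *Dynlt1c*. The sum over all 4 copies gave 1.87, 2.15, 2.21, and 1.92 in the left ventricle, infarct, border, and remote zones. In the infarct zone over left ventricle contrast, library totals took *Dynlt1b* to 0.88 (edgeR adjusted p = 0.000595) and *Tmem181a* to 0.99 (adjusted p = 0.000358) on the log2 scale, and no filter took *Dynlt1c* to 0.71 (adjusted p = 0.067). DESeq2 called 2 neighbouring genes for genotype, and 1 listed gene (*Capza1*) for the border zone. Leaving out each region in turn gave 0 to 2 neighbouring genes, with 2 only without the left ventricle. No result reversed direction. Over all genes, the 18 genotype calls became 342 by DESeq2, 56 with library totals, and 3 to 83 with a region left out (83 without the left ventricle). The 93 border zone calls became 576 by DESeq2 and 200 with library totals, and the 0 remote zone calls became 162, 18, and, with no filter, 3. With 1 library per group, no replicate could be left out.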
